A study of Solanum dulcamara with 18 samples.

Results

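Among 24158 assembled contigs of Solanum dulcamara leaf RNA, 30 were chosen by a rule that asked for higher levels after caterpillar feeding in flooding plants and little or no rise in control and drought plants. Solanum dulcamara, bittersweet nightshade, is a wild perennial relative of tomato and potato. Leaves were taken from plants under control, drought or flooding watering, each with or without 48 h of feeding by Spodoptera exigua, the beet armyworm, a caterpillar that eats leaves of many plant families. Watering treatments ran for 5 days and were kept up during 2 further days of insect treatment, and plants grew in a standard greenhouse. Each of the 6 combinations had 3 libraries, described by the series as biological replicates, so 18 libraries entered the analysis. The labels gave no genotype, accession or plant age, and did not say whether a library held 1 plant or several.

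Chewing insects and their oral secretions set off jasmonate signalling in leaves, which raises the transcripts of many defence proteins and enzymes of defence compounds. Flooding cuts the oxygen supply of roots and reaches the shoot through ethylene, abscisic acid and altered water and sugar transport, so leaf transcripts can change even where the roots alone are flooded. The study's title asks how drought and flooding alter the leaf's transcript response to the herbivore. The deposited tables do not pair contigs with gene names, and 0 contig IDs were found in the reference gene table. The 30 contigs are therefore described by ID, length and level, with no function and no sequence, and no check of leaf marker genes was made.

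The rule worked on CPM, a contig's reads scaled to a common library total, taken as log2(CPM + 1) and averaged over the 3 libraries of a group. The herbivory difference is the infested mean minus the uninfested mean on that scale, where a value of 1 is about a 2-fold difference for contigs well above 1 CPM. A contig was selected on a herbivory difference of at least 1 in flooding plants, below 0.4 in both control and drought plants, and a mean of at least 2 CPM over all libraries. Of the 17096 contigs with that mean, 827 had a flooding difference of at least 1, and 30 of these met the other conditions. Of the other 797, 584 had a difference of 0.4 or more in both control and drought plants, 189 were below 0.4 in drought alone and 24 in control alone. With the water treatments exchanged in the rule, 2 of 604 contigs with a difference of at least 1 in control plants and 9 of 302 in drought plants stayed below 0.4 in the other water treatments.

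The values that chose the contigs are given as a description, with no test. Their flooding difference ran from 1.003 to 1.79 with a median of 1.18. In the other 797 contigs the median was 1.49. In control plants the 30 had differences from -2.14 to 0.40 with a median of 0.27, and 13 were at 0.3 or more. In drought plants they ran from -2.07 to 0.39 with a median of 0.01, and 15 lay on each side of 0. The difference was above 0 in both control and drought plants for 14 contigs and below 0 in both for 5. A single contig, with 0 reads in 8 of the 18 libraries, gave the lowest difference in both control and drought plants. Its flooding difference was 1.27. Its flooding leaves averaged 4.90 ± 1.48 CPM infested and 3.93 ± 6.74 CPM uninfested (SD, n = 3 each).

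The edges of the rule were narrow. The nearest flooding differences inside were 1.003, 1.005 and 1.011, and the nearest outside were 0.99, 0.98 and 0.97. In control plants the nearest inside were 0.40, 0.40 and 0.40 and the nearest outside 0.42, 0.43 and 0.43. In drought plants the values were 0.39, 0.39 and 0.38 inside and 0.43, 0.44 and 0.48 outside. The limit on the mean fell between 2.00 and 1.99 CPM.

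Membership depended on single libraries. When each library was left out in turn, between 19 and 107 contigs met the rule, and 0 of the 30 met it in all 18 repeats. The fewest repeats met by a member were 8, for comp2975_c0_seq1, and 4 contigs met the rule in 17. Leaving out replicate 1 of uninfested drought plants gave 19 contigs, 16 of them among the 30. Leaving out replicate 3 of uninfested flooding plants gave 107, and leaving out replicate 3 of infested flooding plants gave 99, each holding 28 of the 30.

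**Figure D1:**
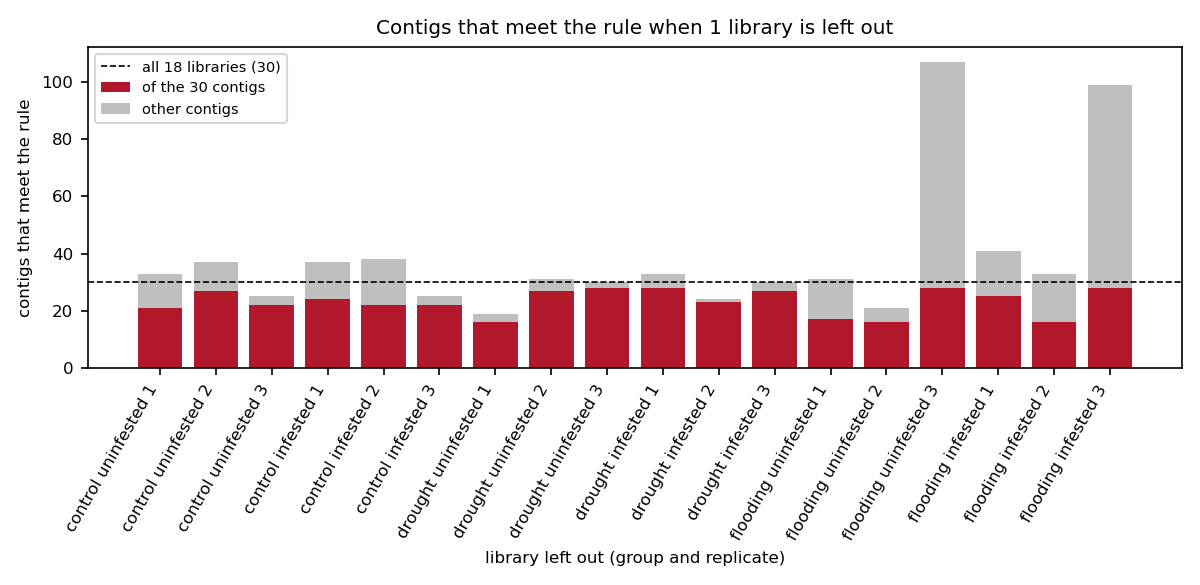
Number of contigs that met the rule (vertical axis) when the library named on the horizontal axis was left out; red marks contigs among the 30, grey marks others, and the dashed line is the count of 30 with all libraries. The counts run from 19 to 107, and the red part falls to 16 for 3 of the libraries.

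Some libraries were often the highest of their groups in these contigs. Replicate 1 of uninfested drought plants was the highest of its group in 20 of the 30, or 66.7%. That share was 43.4% in the other 797 contigs and 31.5% in all contigs that averaged 2 CPM or more. Replicate 2 of infested flooding plants was the highest of its group in 19, or 63.3%, against 48.4% of the other 797 and 40.3% of all. It was the highest of all 18 libraries in 10, or 33.3%, against 25.7% of the other 797 and 12.2% of all. Replicate 3 of uninfested flooding plants was the highest of its group in 20, or 66.7%, close to the 62.0% of the other 797 contigs and against 47.2% of all. Replicate 1 of uninfested drought and both flooding libraries were the highest of their groups together in 12 contigs, or 40% of the 30. This was so in 24.6% of the other 797 contigs and 10.8% of all. Replicate 3 of infested drought plants was the highest of its group in 16, or 53.3%, against 29.7% of the other 797 and 41.9% of all.

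A high library in uninfested drought plants lowers the drought difference, and a high library in infested flooding plants raises the flooding difference, so both act in the direction of the rule. A high library in uninfested flooding plants, such as replicate 3, lowers the flooding difference and so acts against the rule. Without that replicate 107 contigs met the rule, 28 of them among the 30. A high library in infested drought plants, such as replicate 3, raises the drought difference and also acts against the rule. Without replicate 3 of infested drought plants 30 contigs met the rule, 27 of them among the 30 members. Without replicate 1 of uninfested drought and replicate 2 of infested flooding plants, 31 contigs met the rule and 9 of them were among the 30.

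The 30 contigs were mostly short and of low level. Their lengths ran from 505 to 2964 bases (median 948.5 bases), against 1342 bases over the 17096. Their mean level ran from 2.00 to 147 CPM with a median of 8.73 CPM, against 21.1 CPM, and 11 lay under 5 CPM and 10 at 20 CPM or more. Total counts per contig over all libraries ran from 415 to 29236 reads. The median spread within a group (SD of log2(CPM + 1), median over groups) was 0.404 in the 30, 0.328 in the other 797 and 0.174 in all. Each of the 30 was the single contig of its assembly component, as were all but 1.15% of contigs in the table. Library totals ran from 6717218 to 16056241 reads; the 3 infested flooding libraries held 6717218, 8963650 and 14063255 reads.

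**Figure D2:**
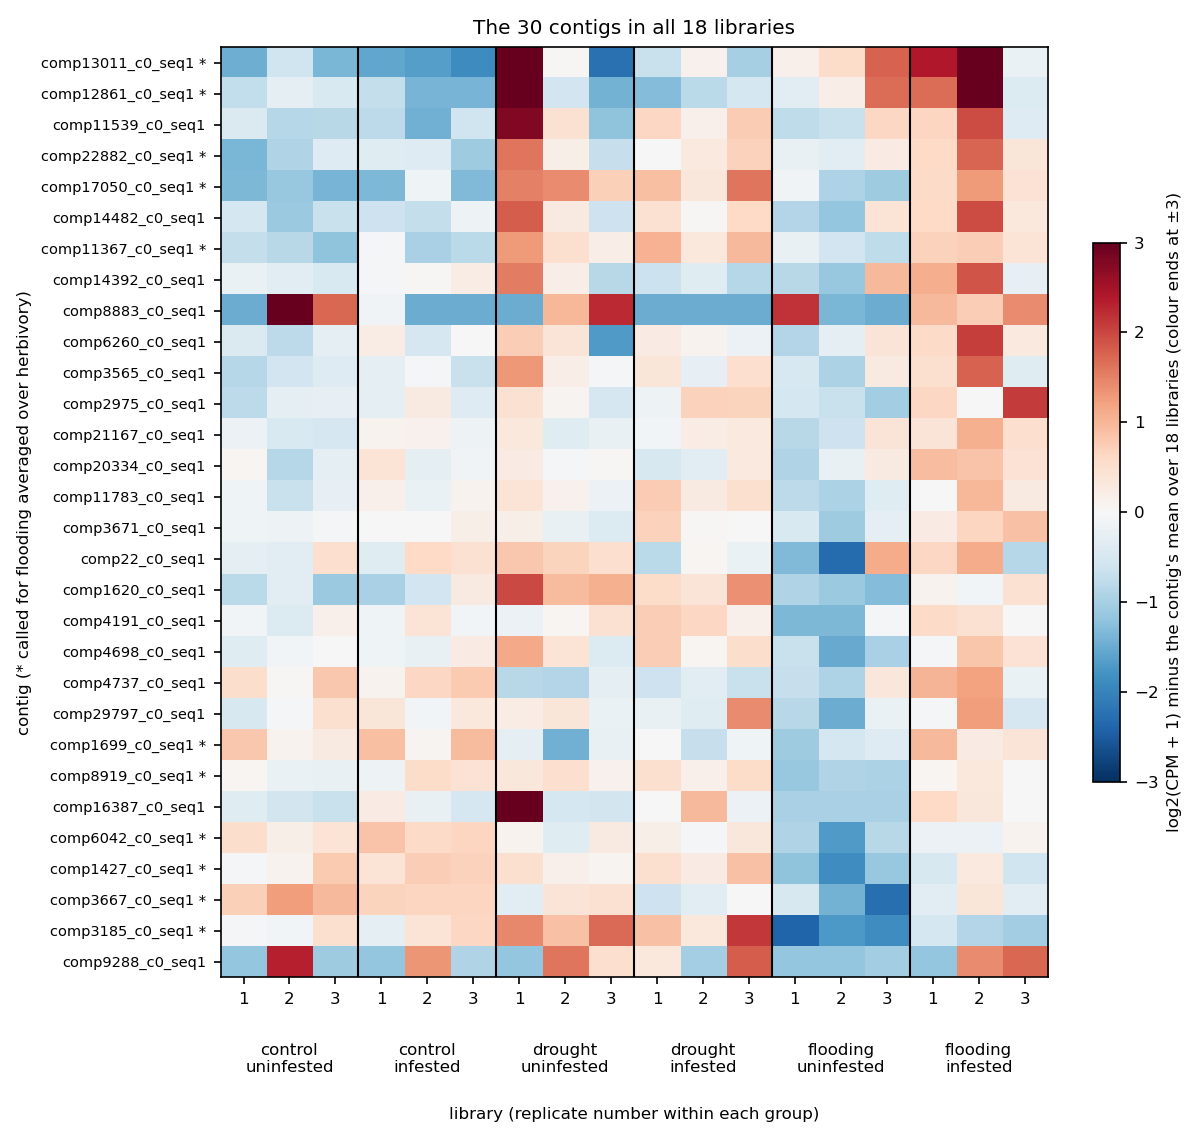
Colour shows log2(CPM + 1) minus the contig's mean over all libraries, for the 30 contigs (rows) in the 18 libraries (columns, by group and replicate); red is above and blue below that mean, and the colour ends at 3 in either direction. Several upper contigs are deep red in replicate 1 of uninfested drought and replicate 2 of infested flooding plants, while lower contigs are blue across the uninfested flooding libraries.

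Averaged over the 30 contigs, the level was lowest in uninfested flooding leaves and highest in infested flooding leaves, a description of what the rule used. Against the uninfested control mean, log2(CPM + 1) was -0.412 ± 0.347 (SD, n = 3) in uninfested flooding and 0.807 ± 0.455 (SD, n = 3) in infested flooding leaves. Drought leaves lay between, at 0.579 ± 0.525 (SD, n = 3) uninfested and 0.378 ± 0.200 (SD, n = 3) infested. Infested control leaves stood at 0.0857 ± 0.0196 (SD, n = 3). In uninfested drought leaves the libraries read 1.16, 0.452 and 0.129, so replicate 1 carried much of that mean.

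In whole leaves, fewer cells of a type and less RNA per cell cannot be told apart. Uninfested flooding was the lowest of the 6 groups in 16 contigs, or 53.3%, against 65.2% of the other 797 and 16.1% of all 17096. Infested flooding was the highest group in 14, or 46.7%, against 32.4% of the other 797 and 18.5% of all. Against control plants with the same insect treatment, 13 contigs were lower in uninfested and higher in infested flooding leaves, or 43.3%, against 23.7% of the other 797 and 8.43% of all 17096. Another 6 were lower or level in both, or 20%, against 43.8% of the other 797 and 27.2% of all. The last 11 were higher or level in both, or 36.7%, against 29.1% of the other 797 and 55.1% of all. A flooding difference of at least 1 with a control difference below 0.4 makes the first of these arrangements more likely. It also leaves no room for the reverse one, higher or level in uninfested and lower or level in infested leaves. That was found in 0 of the 30, 3.39% of the other 797 and 9.32% of all. The other 797 met the flooding limit but mostly not the control limit. The shares, and the medians that follow, are therefore a description. The median flooding-minus-control difference was -0.40 in uninfested and 0.61 in infested leaves. The same medians in the other 797 contigs were -0.26 and 0.04, and over all 17096 both were 0.12. By the edgeR quasi-likelihood test, with p-values adjusted by Benjamini-Hochberg over 20170 contigs and called under 0.05, 7 of the 30 were lower in uninfested flooding than uninfested control leaves, where 10.1% of all contigs were. In infested leaves 3 were higher, with 6.7% of all, and 3 lower, with 8.68% of all. The infested count of 6 was 1 without replicate 3 and 2 without replicate 2 of infested control leaves, 3 without replicate 1 or replicate 2 of infested flooding leaves, and 10 by DESeq2. These contrasts share libraries with the rule, and nothing is read from them.

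**Figure D3:**
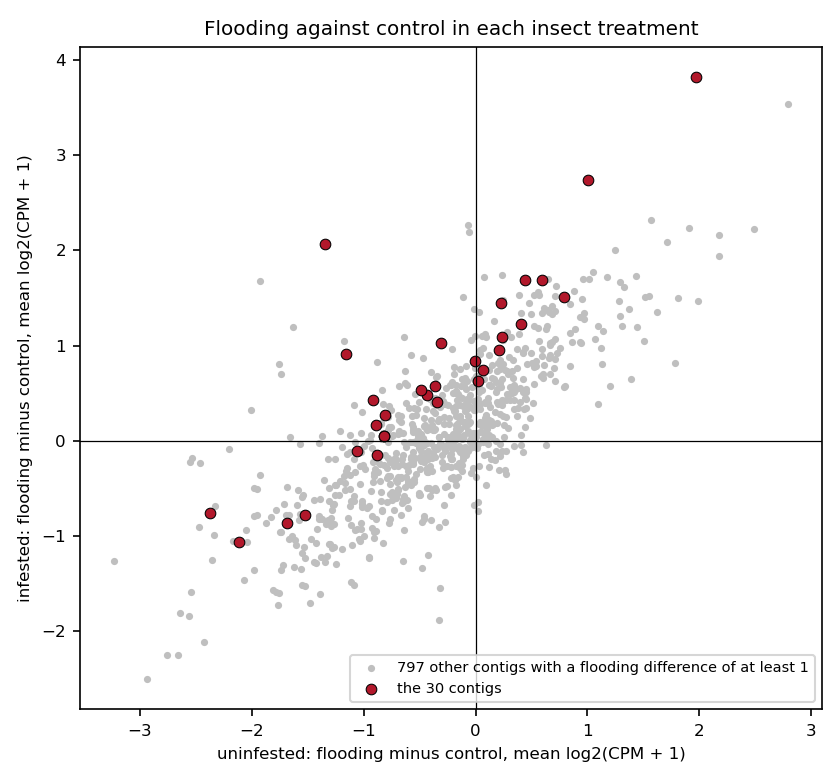
Each point is a contig: the horizontal axis is flooding minus control in uninfested leaves, the vertical axis the same in infested leaves, both in mean log2(CPM + 1); red points are the 30, grey points the other 797 with a flooding difference of at least 1. The upper left area, lower without and higher with feeding, holds 13 red points.

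Calls for feeding within a water treatment, and for its difference between treatments, rest on the same differences that chose the contigs. They are given as a description, and neither a call nor its absence bears on whether the response was particular to flooding plants. The edgeR quasi-likelihood test called 16 of the 30 higher after feeding in flooding plants, or 53.3%. The share was 9.58% of all contigs and 88.9% of the 796 other flooding-induced contigs tested. The count of 16 was 7 without replicate 2 of uninfested flooding plants and 10 without replicate 2 of infested flooding plants. All 3 infested flooding libraries were above all 3 uninfested ones in 17 of the 30, where 13.2% of contigs averaging 2 CPM or more had this order. In control plants 0 were called, with 10.5% of all contigs called. An unadjusted p under 0.05 was found there in 2 of the 30, 1 higher and 1 lower after feeding, and in 26.6% of all. In drought plants 0 were called, with 3.21% of all called. An unadjusted p under 0.05 was found there in 4 of the 30, 1 higher and 3 lower, and in 14.6% of all. DESeq2 and limma also called 0 in both.

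The feeding response in flooding minus that in control plants was above 0 in all 30, as the rule fixes. It was called by edgeR in 0 of the 30 and in 0% of all contigs, and an unadjusted p under 0.05 was found in 11 of the 30 and 3.74% of all. Against drought plants 0 of the 30 were called, with 0.0198% of all called, or 4 contigs. An unadjusted p under 0.05 was found in 19 of the 30 and 9.70% of all. DESeq2, which gave a p-value for 29 of the 30, called 0 of them and 7 of all contigs against control plants. Against drought plants it called 2 of the 30, comp1620_c0_seq1 and comp8919_c0_seq1, and 146 of all contigs. Both are named because the count is small, after their values were seen.

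Water treatments were also compared with edgeR on the level averaged over infested and uninfested leaves. The rule set no limit on these contrasts, but they use the same libraries as its differences. A high library in infested flooding leaves raises both the flooding difference and the flooding average. A high library in uninfested drought leaves lowers the drought difference and raises the drought average. How far the selection shaped these contrasts was not tested. Flooding against control was called in 11 of the 30. Of these, 5 were higher, or 16.7% against 14.6% of all contigs tested, and 6 were lower, or 20% against 17.4% of all. Both shares were near those over all contigs. The higher count was 3 without replicate 2 or replicate 3 of uninfested control, replicate 3 of infested control, replicate 3 of uninfested flooding or replicate 2 of infested flooding leaves. The median log2 fold change was -0.07 in the 30 and 0.01 in all. Among the other flooding-induced contigs, 796 were tested, of which 64 were higher and 260 lower, with a median of -0.26. On the CPM scale of the rule the median of the 30 was 0.07, above 0, while the median contig there was 0.12.

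The contigs with the largest called rises in this contrast varied widely between libraries. comp13011_c0_seq1 (647 bases) read 7.48, 10.3 and 25.2 CPM in uninfested flooding leaves and 39.3, 137 and 5.69 CPM in infested ones. In control leaves it read 1.79, 4.11 and 1.95 CPM without and 1.62, 1.43 and 1.08 CPM with feeding. All 6 flooding libraries were above all 6 control libraries, while infested and uninfested flooding libraries overlapped. Its flooding effect was 3.79 ± 0.98 (SE, log2, edgeR adjusted p = 0.00902). In uninfested drought leaves replicate 1 read 83.1 CPM and the others 6.86 and 0.636 CPM.

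comp12861_c0_seq1 (1069 bases) had a like pattern at a lower level. It read 1.50, 2.60 and 8.97 CPM in uninfested and 9.08, 34.0 and 1.35 CPM in infested flooding leaves, and 30.4 CPM in replicate 1 of uninfested drought leaves against 1.12 and 0.182 CPM. Control libraries lay between 0.197 and 1.56 CPM, so a library of each flooding group fell within the control range. The flooding effect was 3.28 ± 1.09 (SE, log2, edgeR adjusted p = 0.0336). This call was lost without any 1 of 7 libraries: each uninfested control library, replicates 2 and 3 of infested control, replicate 3 of uninfested flooding and replicate 2 of infested flooding leaves. The adjusted p was then 0.058 to 0.114, while the effect stayed between 2.49 and 3.38. Without replicate 2 of infested flooding leaves, the herbivory difference fell to 0.27 in comp13011_c0_seq1 and to 0.12 in comp12861_c0_seq1.

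The contigs with the largest called falls had closer replicates. comp3185_c0_seq1 (885 bases) read 3.26, 5.76 and 5.18 CPM in uninfested and 14.6, 11.3 and 9.81 CPM in infested flooding leaves. Control leaves read 20.7, 20.2 and 30.5 CPM without and 17.7, 28.7 and 33.3 CPM with feeding. All flooding libraries were below all control libraries, and the infested flooding libraries were above the uninfested ones while still below control. Its flooding effect was -1.87 ± 0.30 (SE, log2, edgeR adjusted p = 0.000327). In drought leaves it read 60.1, 40.1 and 72.3 CPM without and 40.0, 26.9 and 96.1 CPM with feeding, and the drought effect was 1.04 ± 0.27 (SE, log2, edgeR adjusted p = 0.0133).

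comp3667_c0_seq1 (2192 bases) read 46.6, 68.3 and 56.1 CPM in uninfested and 45.2, 44.4 and 44.2 CPM in infested control leaves. In flooding leaves it read 19.6, 9.86 and 5.02 CPM without and 21.9, 36.5 and 21.8 CPM with feeding. Every infested library was below every uninfested one in control plants and above every uninfested one in flooding plants. Its flooding effect was -1.65 ± 0.26 (SE, log2, edgeR adjusted p = 0.000262), and its drought effect was -1.01 ± 0.25 (adjusted p = 0.00936).

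The most abundant contig per length was comp1427_c0_seq1 (598 bases), at 245 CPM per kilobase. It read 127, 142 and 226 CPM in uninfested and 173, 220 and 211 CPM in infested control leaves. In flooding leaves it read 55.9, 35.2 and 59.6 CPM without and 93.6, 162 and 86.7 CPM with feeding. The uninfested flooding libraries were below all 15 others. Its flooding effect was -1.39 ± 0.18 (SE, log2, edgeR adjusted p = 5.09e-05), while its drought effect was -0.17 ± 0.18 (adjusted p = 0.529).

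comp8919_c0_seq1 (2229 bases) had the widest gap below the other libraries. Uninfested flooding leaves read 3.35, 4.10 and 3.95 CPM, and the other 15 libraries lay between 7.20 and 13.2 CPM. Infested flooding leaves read 8.93, 10.9 and 8.75 CPM, within the range of infested control leaves at 7.61, 13.2 and 11.9 CPM. Uninfested control leaves read 9.06, 7.35 and 7.20 CPM, and the herbivory difference there was 0.397, just under the limit of the rule. The flooding effect averaged over herbivory was -0.74 ± 0.15 (SE, log2, edgeR adjusted p = 0.00141). Uninfested flooding was below the other 15 libraries in 6 of the 30 contigs, where 2.31% of contigs averaging 2 CPM or more had this order. The rule favours low uninfested flooding levels, so nothing is read from this count.

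The opposite arrangement, infested flooding above all 15 other libraries, was found in 1 of the 30 contigs and in 0.643% of contigs averaging 2 CPM or more. comp20334_c0_seq1 (2964 bases) read 42.9, 41.1 and 30.3 CPM in infested flooding leaves. The next highest library, replicate 1 of infested control leaves, read 29.5 CPM, a gap of 0.035 on the log2(CPM + 1) scale. Uninfested flooding leaves read 11.4, 18.7 and 26.8 CPM, overlapping the control libraries. Its flooding effect averaged over herbivory was 0.31 ± 0.21 (SE, log2, edgeR adjusted p = 0.282).

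**Figure D4:**
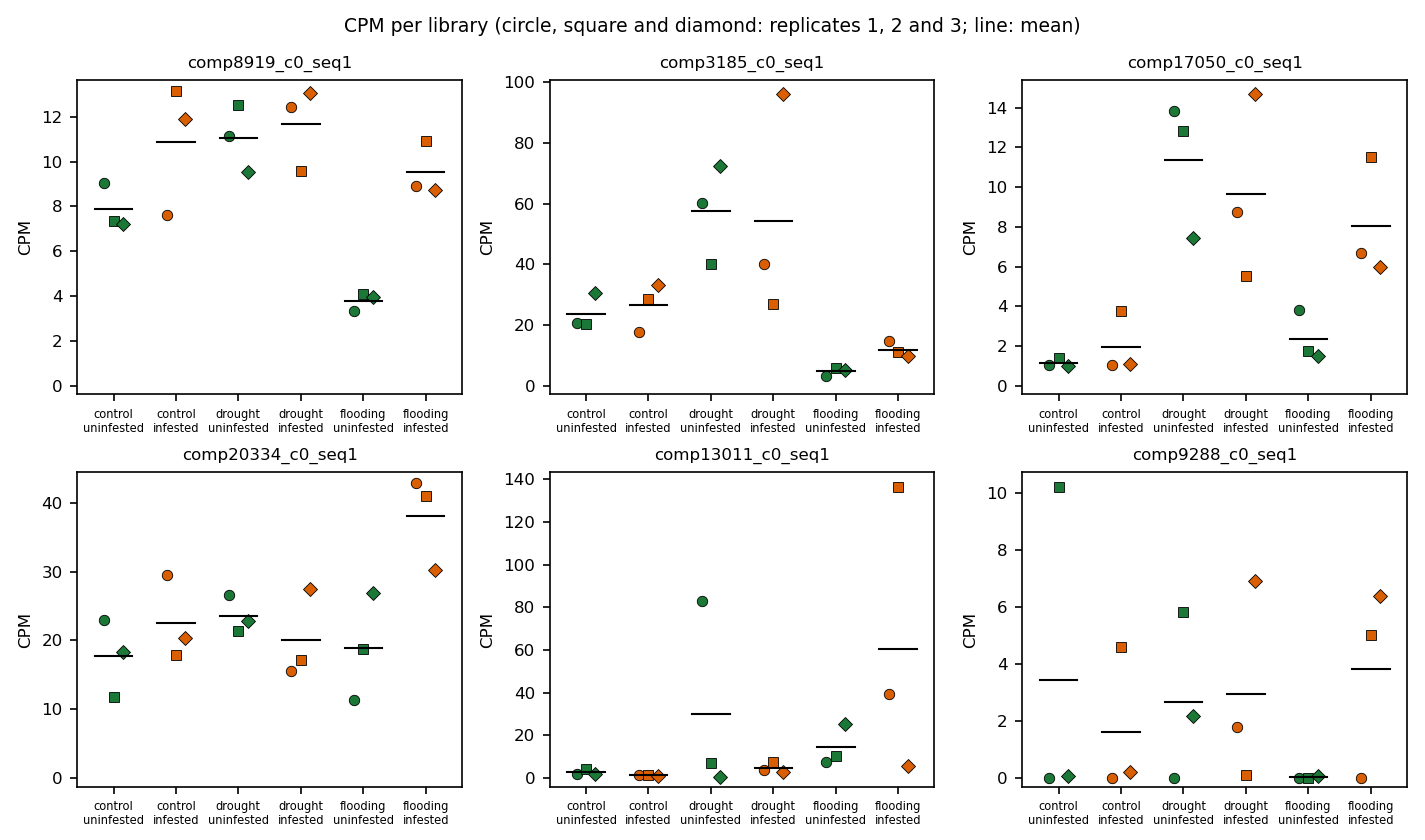
CPM of 6 contigs in every library, by group (horizontal axis); circles, squares and diamonds are replicates 1, 2 and 3, green is uninfested, orange infested, and the line is the group mean. The uninfested flooding points of comp8919_c0_seq1 and comp3185_c0_seq1 lie below all others, while single libraries lead the groups of comp13011_c0_seq1.

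Drought against control, averaged over infested and uninfested leaves, was called by edgeR in 10 of the 30. Of these, 6 were higher, or 20% against 9.81% of all contigs, and 4 lower, or 13.3% against 12.5% of all. The higher count was 10 without replicate 3 of uninfested drought leaves. It fell to 4 without replicate 1 of uninfested drought, replicate 3 of infested drought or replicate 2 of uninfested control leaves. The median log2 fold change was 0.28 in the 30, 0.29 in the other flooding-induced contigs and 0.01 in all. Flooding and drought were both called in 7, of which 3 were higher in both, 3 lower in both and 1, comp3185_c0_seq1, lower under flooding and higher under drought. Over all contigs tested 15.4% were called in both, 6.03% higher in both, 9.07% lower in both and 0.208% lower under flooding and higher under drought. These comparisons share the control libraries. They also share libraries with the rule. A high replicate 1 of uninfested drought leaves acts in the direction of the rule and also raises the drought average. The shares are therefore given as a description.

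comp17050_c0_seq1 (752 bases) rose most under drought among contigs of at least 5 CPM. It read 13.8, 12.8 and 7.45 CPM in uninfested and 8.76, 5.53 and 14.7 CPM in infested drought leaves, against 1.02, 1.37 and 0.973 CPM in uninfested and 1.04, 3.77 and 1.08 CPM in infested control leaves. All drought libraries were above all control libraries. Its drought effect was 2.70 ± 0.36 (SE, log2, edgeR adjusted p = 0.000122). In flooding leaves it read 3.79, 1.74 and 1.48 CPM without and 6.70, 11.5 and 5.97 CPM with feeding, and the infested flooding libraries lay within the range of the drought libraries.

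comp11367_c0_seq1 (945 bases) was also highest in drought leaves. It read 18.7, 10.3 and 8.35 CPM in uninfested and 15.6, 9.14 and 15.0 CPM in infested drought leaves, and 5.99, 4.50 and 3.78 CPM in uninfested and 12.2, 12.5 and 9.88 CPM in infested flooding leaves. Uninfested control leaves read 3.95, 3.55 and 2.53 CPM. Its drought effect was 1.63 ± 0.24 (SE, log2, edgeR adjusted p = 0.000257) and its flooding effect 0.81 ± 0.25 (adjusted p = 0.0193). Without replicate 1 of uninfested drought leaves its drought herbivory difference was 0.44, outside the rule.

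The largest falls under drought were in comp4737_c0_seq1 and comp1699_c0_seq1. comp4737_c0_seq1 (1882 bases) averaged 77.4 ± 20.2 CPM in uninfested control, 34.7 ± 8.86 CPM in uninfested drought and 43.6 ± 22.2 CPM in uninfested flooding leaves (SD, n = 3 each). Infested leaves averaged 79.7 ± 18.3, 37.6 ± 4.80 and 95.8 ± 42.7 CPM in the same order. The infested flooding libraries read 112, 128 and 47.4 CPM, so replicate 3 lay below all control libraries and the others above them. The drought effect was -1.23 ± 0.26 (SE, log2, edgeR adjusted p = 0.00347).

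comp1699_c0_seq1 (639 bases) averaged 72.8 ± 19.5, 36.7 ± 15.2 and 34.5 ± 8.34 CPM in uninfested control, drought and flooding leaves (SD, n = 3 each). Infested leaves averaged 87.7 ± 26.9, 45.3 ± 11.0 and 80.3 ± 22.9 CPM. Its drought effect was -1.08 ± 0.25 (SE, log2, edgeR adjusted p = 0.00607), and its flooding effect was -0.73 ± 0.24 (adjusted p = 0.0341).

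**Figure D5:**
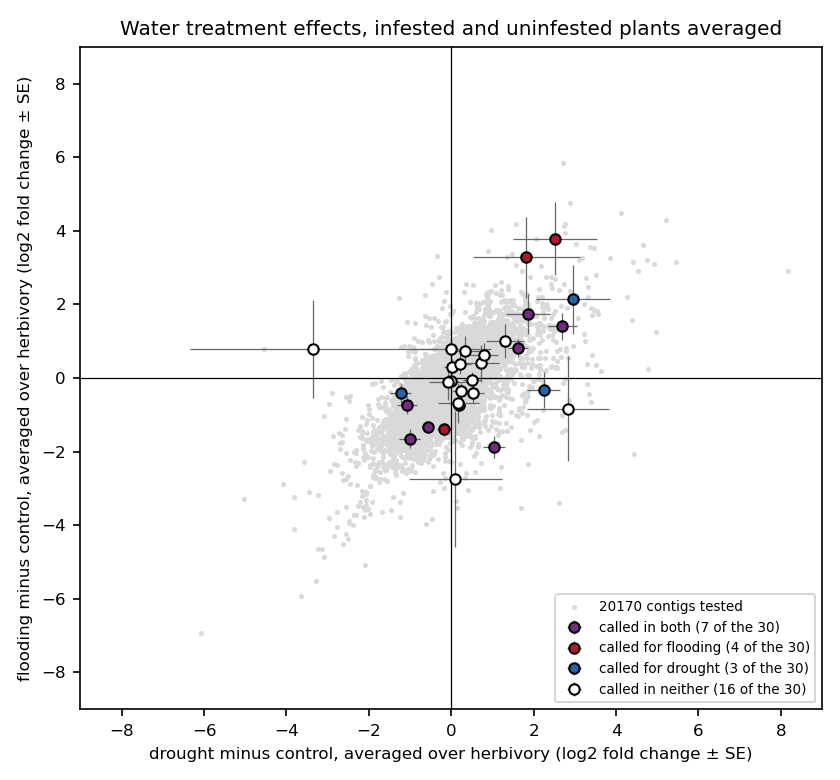
Log2 fold change of drought (horizontal axis) and flooding (vertical axis) against control, averaged over infested and uninfested leaves, with bars of 1 SE; grey points are all 20170 contigs tested and the large points the 30, coloured by call. Of the 30, 7 were called in both, 4 for flooding, 3 for drought and 16 in neither.

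Flooding set directly against drought, averaged over herbivory, was called by edgeR in 8 of the 30. All 8 were lower under flooding, or 26.7% against 6.51% of all contigs, and 0 were higher, where 4.39% of all were. The other flooding-induced contigs had the same lean, with 261 of 796 lower, or 32.8%, and 2 higher. The median log2 fold change was -0.44 in the 30, -0.50 in the others and 0.01 in all. Without replicate 1 of uninfested drought leaves the median of the 30 was -0.06, with 2 called higher and 6 lower. When high, that library acts in the direction of the rule and also lowers this contrast. The lean in the 30 is therefore given as a description. A contig was called higher, 1 in each case, without replicate 2 of uninfested flooding leaves, without replicate 3 of infested flooding leaves, and by DESeq2. The largest fall among contigs of at least 5 CPM was in comp3185_c0_seq1, at -2.91 ± 0.30 (SE, log2, edgeR adjusted p = 7.18e-05). The next was comp17050_c0_seq1, at -1.30 ± 0.32 (adjusted p = 0.0167). Without replicate 3 of infested drought leaves 5 of the 30 were called, and comp17050_c0_seq1 was at -1.09 (adjusted p = 0.0531).

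The largest flooding differences under the rule belonged to contigs with few reads. comp9288_c0_seq1 (878 bases) had 0, 0 and 1 reads in uninfested flooding libraries and 0, 45 and 90 in infested ones. Its control libraries read 0, 10.2 and 0.0649 CPM without and 0, 4.59 and 0.197 CPM with feeding, so presence and absence varied within groups in every water treatment. comp2975_c0_seq1 (866 bases) read 0.792, 0.631 and 0.247 CPM in uninfested and 2.98, 1.56 and 10.1 CPM in infested flooding leaves, with no overlap. A count of 0 reads was found in at least 1 library for 3 of the 30 contigs.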

How the data were processed

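Total leaf RNA came from a Plant RNeasy kit with DNase treatment and went into Illumina libraries, per the labels' protocols. The submitters' processing notes name Bowtie 0.12.7 and DESeq; the assembly, counting tool and use of strand are not given in the sources used here. The authors deposited raw read counts per contig for 24158 contigs. They also deposited a normalized signal for 22410 contigs, which on its values equals the count times 1 factor per library per kilobase, to a relative departure of 1.13e-09. Groups and column numbers came from the sample labels.

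CPM was computed from column totals for the rule and for printed levels. Counts were tested with edgeR 4.0.16 in R 4.3.3 (filterByExpr with minimum count 10 and minimum total 15, TMM factors of 0.910 to 1.09, robust quasi-likelihood, 1 mean for each of 6 groups, Benjamini-Hochberg over 20170 contigs, called under 0.05). All 30 contigs passed this filter. The common biological coefficient of variation was 18.6%. DESeq2 1.42.0 and limma 3.58.1, on log2(signal + 1), were alternatives. DESeq2 gave p-values for 29 of the 30. Library totals were 6717218 to 16056241 reads, and replicate pairs differed by more than sampling noise (chi-square per degree of freedom 7.70 to 45.4). The p-values weigh a group difference against the spread between libraries within groups. The labels do not say how replicates were grown, so how far that spread stands for spread between plants is not known.

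Contigs were named by rule: the 2 largest flooding differences, the 2 largest rises and falls called in each averaged contrast at a mean of at least 5 CPM, the 2 highest CPM per kilobase, and the 2 widest gaps of a flooding group from the other 15 libraries. The contigs and the choices of test were made with earlier results of these data known.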

Additional observations from a re-analysis of the deposited data

Results flagged for a closer look

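In comp3667_c0_seq1 the measured herbivory difference had opposite signs in control and flooding plants. The herbivory difference in log2(CPM + 1) was 1.29 in flooding and -0.33 in control plants, so that flooding minus control was 1.62. All 3 infested libraries were above all 3 uninfested ones in flooding plants and below them in control plants. The closest control libraries read 45.2 CPM infested and 46.6 CPM uninfested. By edgeR the fall in control plants was -0.35 ± 0.34 (SE, log2, adjusted p = 0.558) and was not called. In drought plants the herbivory difference was -0.49. The edgeR interaction was 1.60 ± 0.51 (SE, log2), and its adjusted p was 0.999935 over all contigs tested, so the difference did not pass the threshold. The contig was chosen by these same differences, so these values are a description.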

How the results depend on the processing

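The count of contigs meeting the rule was 19 when the mean had to reach 5 CPM and 19 to 107 when 1 library was left out. With TMM-scaled CPM 24 contigs met it, 22 of them among the 30, and with DESeq2 size factors 22, all among the 30. A pseudocount of 0.5 gave 35 contigs, 20 among the 30, and one of 2 gave 22, 16 among the 30.

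Calls among the 30 when 1 library was left out ranged from 8 to 13 for flooding and from 8 to 14 for drought averaged over herbivory, and from 5 to 9 for flooding against drought. They ranged from 7 to 18 for feeding in flooding plants, 0 to 1 in control plants (1 without replicate 1 of infested control), 5 to 8 for flooding in uninfested and 1 to 8 in infested leaves; drought feeding and both interactions stayed at 0. With at least 10 counts in every library, 18 of the 30 could be tested and 7 were called for flooding averaged. DESeq2 called 2 for the interaction against drought and 10 for flooding in infested leaves. Without replicate 1 of uninfested drought and replicate 2 of infested flooding leaves, an alternative chosen after seeing the data, as were all those on interactions and on flooding within 1 insect treatment, calls were 10 for flooding, 9 for drought, 8 between them and 11 for feeding in flooding plants.

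With the replicate block, calls were 11 for flooding averaged, 9 for drought averaged, 7 between them, and 16, 0 and 0 for feeding in flooding, control and drought plants. Same-numbered libraries correlated from -0.422 to 0.485 over 45 pairs of groups and replicates, with a median of 0.003 and 10 of them over 0.1. With 3 libraries per group, these values do not settle whether the numbers pair the libraries. For the averaged contrasts in which a contig was named for its rise or fall, there were 256 alternative values. Of these, 247 kept their call, 9 lost it and 0 reversed. Among the 9, 8 were comp12861_c0_seq1 under flooding, including limma (adjusted p = 0.0534), and 1 was comp17050_c0_seq1 in flooding against drought. Other calls printed for named contigs were not among the 256. Low counts limit the precision of the 11 contigs under 5 CPM.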
